A study of Mus musculus with 17 samples.

Results

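Of 4051 regions listed for the RNA-binding protein Musashi-2 (Msi2) in mouse keratinocytes, 2671 were also in the authors' separate list of 3' UTR regions. The 1319 regions described here were the rest, after 17 regions on the mitochondrial genome and 44 in a ribosomal RNA repeat on chromosome 17 had been set aside. They were chosen by position and strand alone, a rule set with earlier results of these data known. The regions came from HITS-CLIP of Msi2 in 5 libraries. In this assay ultraviolet light joins a protein to the RNA it touches, RNase trims the RNA, an antibody recovers the protein, and the attached RNA pieces are sequenced.

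The cells were a keratinocyte culture from the skin of newborn C57BL/6 mice that had immortalized spontaneously; it was grown on mitomycin-treated NIH-3T3 J2 fibroblast feeder cells for 3 passages and then on uncoated dishes. For CLIP, for which the labels name no virus, an Msi2 antibody was used, after UVC at 200 mJ/cm2 had been given to the cultures on 2 occasions. The 5 CLIP libraries differed in RNase: undiluted, diluted 1 in 20 (1 library labelled low MW and 1 labelled high MW), 1 in 50 and 1 in 75. Other cultures received a lentivirus with a scrambled shRNA (control) or an shRNA against Msi2 (knockdown) and, 2 days later, 2 ug/ml of puromycin for 2 days. From these, RNA was sequenced in 3 control and 3 knockdown libraries and ribosome footprints, the RNA pieces that ribosomes shield from nuclease, in another 3 and 3. For footprints, cultures were also treated with cycloheximide before harvest. The labels do not say whether replicates came from separate cultures, so each p-value reflects only how far these particular libraries scatter, and that scatter could be technical. No CLIP library made with a control antibody, and none of total small RNA, was analysed here.

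Musashi proteins bind RNA through RNA recognition motifs that favour the letters UAG, and they are best known for binding 3' UTRs of messenger RNAs and changing their translation. A list of sites elsewhere can hold coding exons and introns, but also RNAs that are not translated. Among these are small nucleolar RNAs (snoRNAs), which guide chemical changes on ribosomal RNA and are cut out of introns of host genes; microRNAs (miRNAs), short RNAs that pair with messenger RNAs through their seed, bases 2 to 8; transfer RNAs; spliceosomal small nuclear RNAs (snRNAs); and long noncoding RNAs (lncRNAs) such as Malat1 and Neat1 of nuclear speckles and paraspeckles.

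The sequences of the miRNAs covered by a region show what many of the smallest regions were, and which of them share a seed. Mature sequences are from RefSeq (GRCm38.p6), written 5' to 3' with the seed in capitals. The most populated seed was that of the let-7 family, known for limiting growth and promoting differentiation, with 6 mature miRNAs under 6 regions:
mmu-let-7b-5p: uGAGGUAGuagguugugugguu
mmu-let-7c-5p: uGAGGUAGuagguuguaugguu
mmu-let-7d-5p: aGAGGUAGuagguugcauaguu
mmu-let-7e-5p: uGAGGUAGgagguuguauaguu
mmu-let-7g-5p: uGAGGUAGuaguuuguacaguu
mmu-let-7i-5p: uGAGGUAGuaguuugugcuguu
A further seed was shared by 5 members of the miR-17 family, which is known for promoting proliferation:
mmu-miR-17-5p: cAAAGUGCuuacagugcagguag
mmu-miR-20a-5p: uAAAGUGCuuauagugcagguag
mmu-miR-20b-5p: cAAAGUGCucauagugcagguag
mmu-miR-93-5p: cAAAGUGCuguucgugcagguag
mmu-miR-106b-5p: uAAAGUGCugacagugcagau
Another seed was that of 5 members of the miR-15/16 family:
mmu-miR-15a-5p: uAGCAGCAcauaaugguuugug
mmu-miR-15b-5p: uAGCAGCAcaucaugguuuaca
mmu-miR-16-5p: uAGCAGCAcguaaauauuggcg
mmu-miR-195a-5p: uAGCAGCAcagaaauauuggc
mmu-miR-322-5p: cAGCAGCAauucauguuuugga
Also shown are miRNAs known for high levels in epidermis or other epithelia (miR-31, miR-203, miR-205 and the miR-200 family, of which miR-200b and miR-429 share a seed):
mmu-miR-31-5p: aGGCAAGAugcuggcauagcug
mmu-miR-203-3p: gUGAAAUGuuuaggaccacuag
mmu-miR-205-5p: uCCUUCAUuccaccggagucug
mmu-miR-200b-3p: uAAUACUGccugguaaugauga
mmu-miR-429-3p: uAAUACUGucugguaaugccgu
The last 3 are miRNAs best known from blood cells, which were also under regions:
mmu-miR-142a-3p: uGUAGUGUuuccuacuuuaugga
mmu-miR-155-5p: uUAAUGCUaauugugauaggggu
mmu-miR-451a: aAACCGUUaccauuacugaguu

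In all, 106 regions covered at least 90% of a mature miRNA on the hairpin's strand, and they held 115 distinct mature miRNAs with 88 seeds; 15 seeds were shared by 2 or more of them. Of these regions, 79 were 35 bases wide or less, with a median width of 26 bases. In 71 of the 79 the region began within 2 bases of the mature 5' end, and the median region ended 3 bases past the mature 3' end. These regions therefore had the extent of the mature RNA, not of the hairpin. The letters UAG occurred in 42 of the 115 mature sequences (36.5%), searched on the mature strand only. They occurred in 397 of the 1674 distinct mature sequences of the RefSeq table (23.7%). All 6 let-7 sequences shown above hold these letters, as do all of the miR-17 family but miR-106b-5p and all of the miR-15/16 family but miR-322-5p. Related sequences were counted singly, and the RefSeq set was not limited to miRNAs present in these cells. The difference between these shares was not tested.

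Reads at these regions were few and even. In the 79 narrow regions the count per library lay between 1 and 13 reads in the undiluted library (median 5), 1 and 22 in the low MW 1 in 20 library (median 4), 0 and 9 in the high MW library (median 3), 1 and 16 in the 1 in 50 library (median 4) and 1 and 16 in the 1 in 75 library (median 3). The highest count was that of miR-20b-5p in 4 of the 5 libraries. Whether identical reads were merged before counting is not given in the sources used here. For let-7b-5p, at chr15:85707323-85707356, the 5 libraries held 7, 6, 3, 5 and 5 reads in the order given above, and for miR-203-3p, at chr12:112130926-112130952, 9, 8, 8, 9 and 7. For miR-200b-3p, at chr4:156055682-156055709, the counts were 13, 10, 6, 8 and 9. The undiluted library, the shallowest by far, was thus as high as the others or higher at these 3 regions.

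Regions over the hairpins of miR-31 and miR-205 were wider and covered both arms. The miR-31 region, at chr4:88910510-88910638, had 57, 33, 18, 29 and 22 reads, the highest total of any region in this class except that over Gm24148 (mir-3535, in the Ncl gene span, 166 reads). The miR-205 region, at chr1:193507455-193507526, had 18, 17, 12, 14 and 15. The miRNAs known from blood cells had counts of the same order: 12, 11, 9, 11 and 11 for miR-142a-3p, 6, 6, 5, 5 and 7 for miR-155-5p, and 12, 9, 6, 8 and 6 for miR-451a. In the keratinocyte RNA the 5 immune marker genes on the fixed list summed to between 8.3 and 18.6 CPM (counts scaled to the size of the library), with a mean above 1 CPM for 1 of the 5, against 14100 to 20600 CPM for the 10 keratinocyte markers; whether other cells added these miRNAs was not tested.

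The 5 CLIP libraries held very different numbers of listed reads: 6608 in the undiluted library and 44753 to 61629 in the others. The 1319 regions took 47.1% of the listed reads of the undiluted library (95% exact binomial interval 45.9 to 48.3, counting error only), and 34.5, 30.7, 38.3 and 32.8% of those of the low MW 1 in 20, high MW 1 in 20, 1 in 50 and 1 in 75 libraries. Within the 1319 regions the miRNA class, 111 regions, took 22.2% of the reads of the undiluted library (20.8 to 23.7) and 4.39, 2.79, 2.62 and 3.29% of those of the other 4. The undiluted share was 5.06 times the next highest. No other class of 50 or more regions had its highest share in the undiluted library. All classes of small RNA gene together took 50.0, 39.4, 34.6, 35.5 and 39.3% of the reads.

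**Figure D1:**
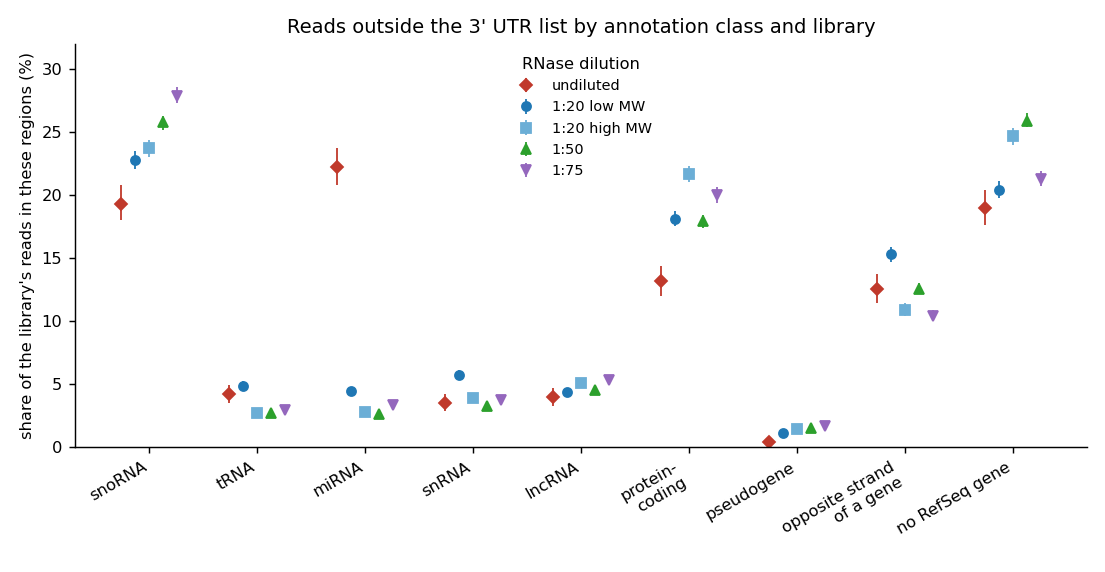
Share of each CLIP library's reads in the regions outside the 3' UTR list that fell in each annotation class (y axis, percent; x axis, class), with 1 marker per library by RNase dilution and bars for the 95% exact binomial interval, which covers counting error only. The undiluted library stands at 22.2% in the miRNA class and the other 4 between 2.62 and 4.39%, while snoRNA genes take 19.3 to 27.9% in every library.

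Narrow regions went with reads of the undiluted library also outside annotated miRNA genes. Of the 1319 regions, 113 (8.57%) were under 40 bases wide, against 17 of 2671 (0.636%) in the 3' UTR list. In the 113, 27.5% of the reads were from the undiluted library; in regions of 40 to under 80, 80 to under 120, and 120 or more bases the share was 3.97, 3.62 and 3.06%. The 26 narrow regions outside the miRNA class had 32.5%. One of these 26, of 21 bases at chr4:88910615-88910635, lay opposite the miR-31 hairpin and had 33, 15, 4, 5 and 5 reads; another, at chrX:52742159-52742183 opposite the miR-20b hairpin, had 11, 16, 6, 11 and 11. A region of 38 bases in Krt16, a keratin of stressed epidermis, had 11, 8, 4, 4 and 6. Among the few miRNAs of the 3' UTR list, miR-200c-3p (29 bases, 70 reads) had 24.3% of its reads in the undiluted library and miR-141-3p (27 bases, 47 reads) 27.7%.

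**Figure D2:**
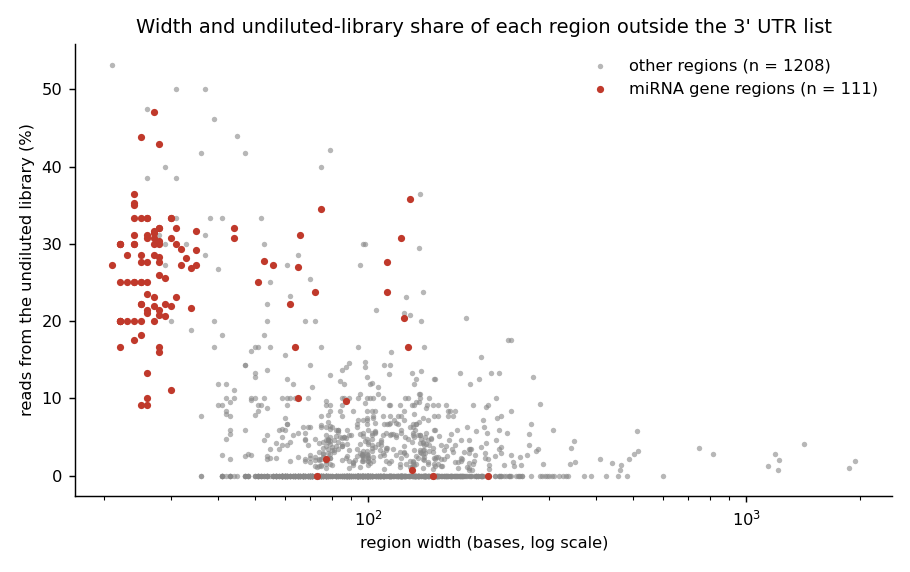
Percent of a region's reads from the undiluted library (y axis) against its width in bases (x axis, log scale), 1 point per region outside the 3' UTR list, with the 111 regions in miRNA genes in red and all others in grey. Regions under 40 bases sit mostly above 10%, most wider regions below it.

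By reads, the largest annotated class was snoRNA. It had 203 regions (15.4%) and 18818 of the 75374 reads of the 1319 regions, and its share per library was 19.3, 22.8, 23.7, 25.8 and 27.9%. The regions overlapped 200 of the 1381 snoRNA genes of the RefSeq table, and 186 of the 203 covered 90% or more of the annotated gene, with a median of 13 bases outside it. RefSeq's table gave no strand for these genes, so sense and antisense could not be told apart here. By name, 64 regions were over Snord genes (C/D box, guides of ribose methylation) with a median height of 83, 30 over Snora genes (H/ACA box, guides of pseudouridylation) with a median height of 42.5 and 5 over Scarna genes, the snoRNA-like RNAs of Cajal bodies; 104 had another name. Height is the authors' total peak height over the 5 libraries, at least 10 in every region. In the 3' UTR list 20 of 2671 regions (0.749%) overlapped a snoRNA gene.

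SnoRNA regions lay in the host genes that snoRNAs are known to be cut from. Of the 203, 134 were inside a protein-coding gene span on the same strand, in 83 genes, and a further 45 were in a lncRNA span. Snhg1, a lncRNA gene whose introns carry snoRNAs, held 8 regions, all over snoRNA genes, with 83, 410, 416, 714 and 536 reads. Gas5, another such host, held 9 regions, 8 of them over annotated snoRNA genes, with 43, 269, 367, 506 and 519 reads. Rpl13a, which encodes a protein of the large ribosomal subunit, held 4, all over snoRNA genes, with 28, 158, 173, 338 and 242 reads. In all 3 genes the undiluted library gave the lowest count and the 1 in 50 or 1 in 75 library the highest. These counts were not scaled to depth. The undiluted library held 6608 listed reads and the others 44753 to 61629, and the part of depth in this order was not tested. The stretches between the snoRNA genes held no listed region except 1 in Gas5.

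**Figure D3:**
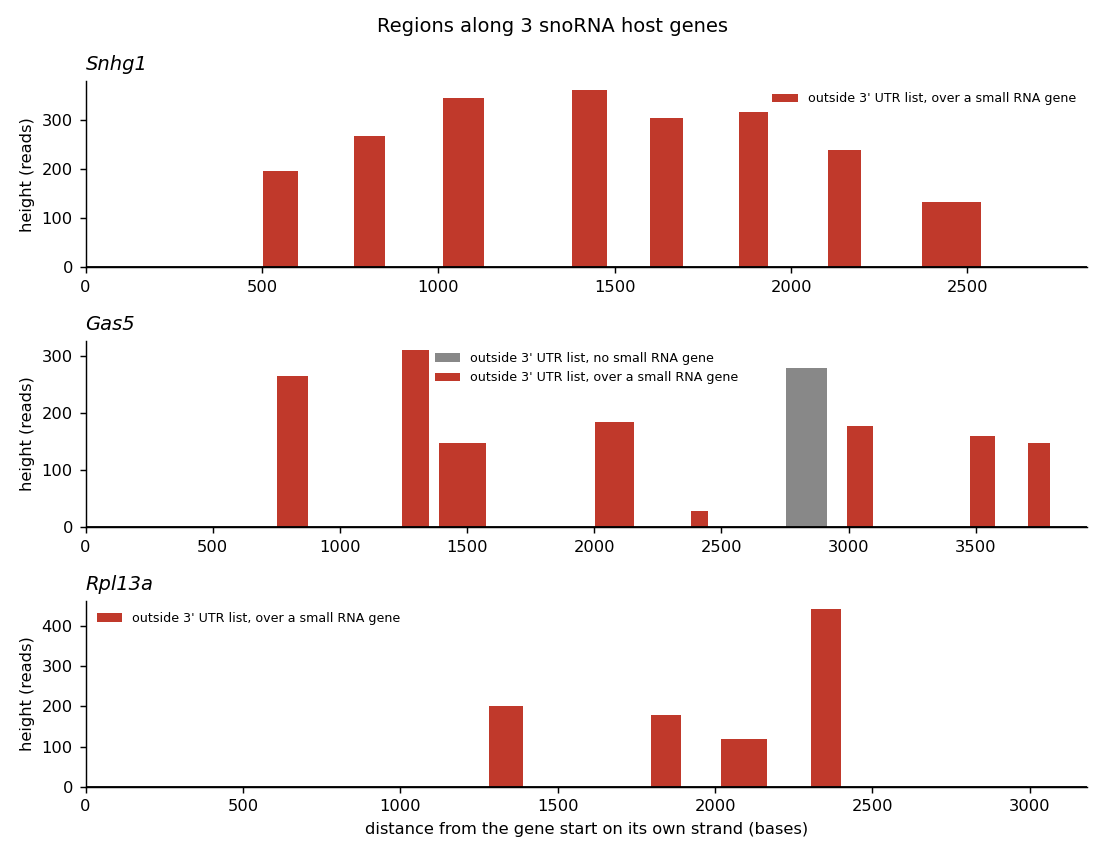
Height of each region (y axis, reads over the 5 CLIP libraries) along Snhg1, Gas5 and Rpl13a (x axis, bases from the gene start on its own strand; bar width is region width). Red bars overlap an annotated small RNA gene and the grey bar in Gas5 does not; all 8 regions of Snhg1 and all 4 of Rpl13a are red.

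The highest snoRNA regions were named singly. A region over an unnamed snoRNA gene in Eif4g2, an initiation factor for alternative translation, at chr7:111076049-111076233, had a height of 538 and 16, 39, 131, 189 and 163 reads. Snord49b, at chr11:62603068-62603188 in the noncoding host 2410006H16Rik, had a height of 464. Snord35a in Rpl13a, at chr7:45126345-45126440, had a height of 441 and 11, 80, 80, 149 and 121 reads. Other ribosomal and translation genes had the same layout: 5 of the 6 regions of Rpl4, 4 of 4 in Rpsa, 4 of 4 in Rpl7a, 5 of 5 in Eif4a2 and 5 of 5 in Nop56, a protein of C/D box particles, lay over small RNA genes. Of the fixed list of 19 small RNA genes and hosts, 15 had a region, with 6235 reads together.

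Transfer RNA genes held 88 regions with 2448 reads (3.25%), over 88 of the 430 tRNA genes of the table; 60 regions covered 90% or more of the gene. They belonged to 18 of the 20 amino acids for which the table has genes, led by aspartate (6 regions, 274 reads), valine (7, 262) and leucine (12, 236). The highest was n-TDgtc16, an aspartate tRNA, with 3, 52, 14, 40 and 26 reads, followed by n-TEctc9 (glutamate) with 8, 30, 25, 26 and 29 and n-TGgcc4 (glycine) with 4, 26, 20, 21 and 22. The low MW 1 in 20 library had the highest share of tRNA reads, 4.86%, and the others 4.17, 2.71, 2.65 and 2.94%. Near-identical tRNA, snRNA and snoRNA copies can share reads, so the copy that a read came from is uncertain.

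Small nuclear RNA genes held 31 regions and 3012 reads (4.00%). Rn7sk (7SK, which holds the elongation factor P-TEFb inactive) had 7, 53, 151, 153 and 172 reads. Rnu5g, a U5 RNA of the spliceosome, had 14, 81, 30, 36 and 27, and Gm25099 had 11, 121, 37, 34 and 38. The first had its highest count in the 1 in 75 library, whereas the other 2 were highest in the low MW 1 in 20 library. That library also had the highest snRNA share, 5.68%, against 3.50 to 3.89% in the undiluted, high MW and 1 in 75 libraries and 3.22% in the 1 in 50 library. The Y RNAs Rny1 and Rny3, partners of the Ro protein, had 13, 90, 115, 115 and 108 reads and 9, 109, 83, 103 and 101 reads.

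Malat1, a lncRNA of nuclear speckles, was covered almost end to end. Its 10 regions, all on the minus strand with the gene, spanned 92.8% of it and had 31, 342, 436, 530 and 508 reads; the highest, at chr19:5797787-5799649, had a height of 671. Neat1, the lncRNA that builds paraspeckles, held 15 regions that together covered 8.54% of its span, with heights of 10 to 19. They were all on the minus strand too. Neat1 reads were spread evenly, 41, 30, 40, 40 and 41 over the 5 libraries, so the undiluted library gave 21.4% of Neat1 reads and 1.68% of Malat1 reads. Of the 10 nuclear lncRNAs on the fixed list, Ftx and Norad were the others with a region.

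In protein-coding genes 441 regions lay on the gene's strand and over no annotated small RNA gene. They were in 231 genes, with 14326 reads and a median height of 14. No exon annotation was used, so coding exon, intron and 5' UTR could not be told apart. The median host span was 45306 bases, against 17149 over all protein-coding genes of the table. Of the 441, 137 (31.1%) fell in the last 20% of the span and 50 (11.3%) in the first 20%; 20 (4.54%) were within 1000 bases of the span's end. Many of the genes also had 3' UTR list regions inside their span, and 331 of the 441 regions were in 136 such genes. Of the 331, 327 lay upstream of all of that gene's 3' UTR list regions, at a median distance of 6506 bases. Because 3' UTRs end a gene and regions listed there were left out, this order follows largely from the choice of regions.

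Ahnak, a very large scaffold protein under the plasma membrane, held the most regions of any gene, 23, with 53, 375, 520, 597 and 557 reads. They ran from 11419 to 28703 bases after the annotated start, and its 3 regions of the 3' UTR list began at 28868. The tallest, at chr19:9005317-9007257, was 1941 bases wide, the widest of all 1319, with a height of 414. Dsp (desmoplakin, which ties keratin filaments to desmosomes) held 17, with 11, 54, 112, 121 and 105 reads, and Fat1, a giant protocadherin, 15, with 5, 42, 63, 73 and 71. Pls3 (an actin bundler), Cdcp1 (a transmembrane substrate of Src kinases), Krt14 (the basal keratin) and Flna (filamin A, an actin crosslinker) followed with 11, 9, 8 and 8 regions and 229, 236, 233 and 103 reads. Undiluted reads made up 0.873 to 4.29% of the reads in these 7 genes.

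**Figure D4:**
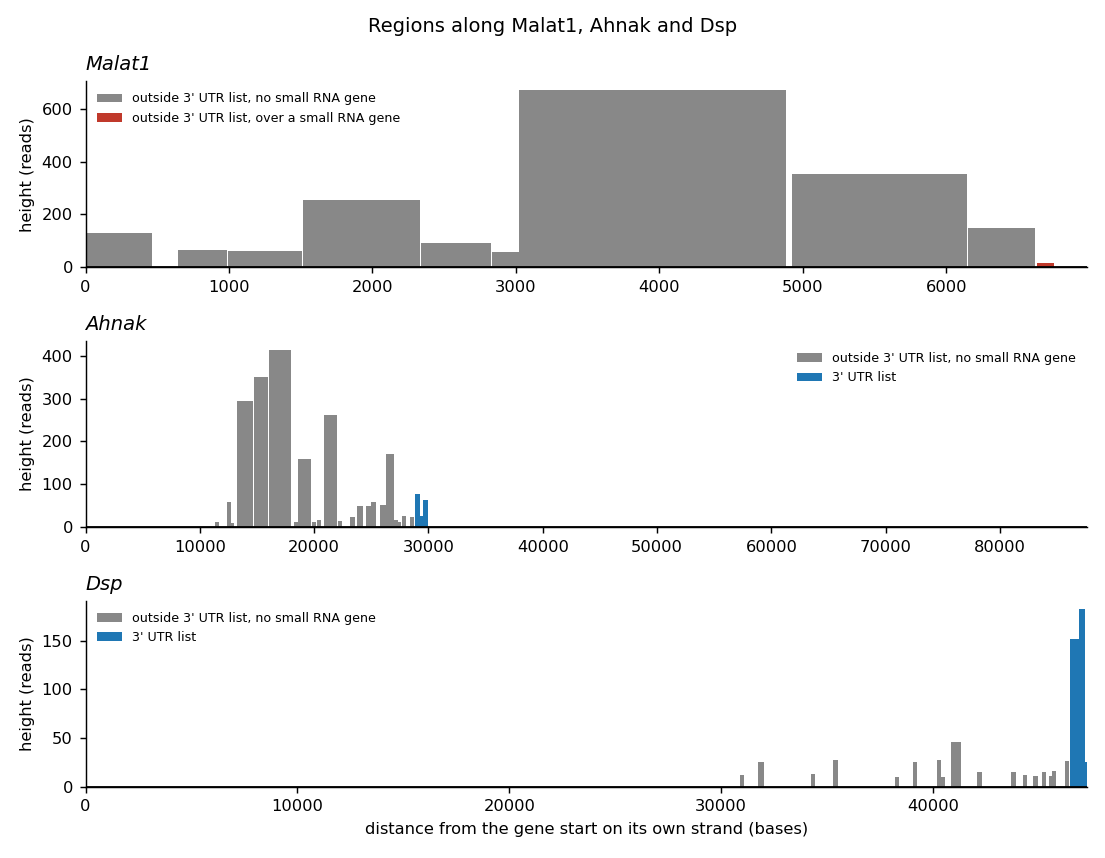
Height of each region (y axis, reads over the 5 CLIP libraries) along Malat1, Ahnak and Dsp (x axis, bases from the gene start on its own strand; bar width is region width), with regions of the 3' UTR list in blue. Grey bars cover 92.8% of Malat1 together with 1 red bar over a small RNA gene at its end. In Ahnak and Dsp the grey bars lie upstream of the blue bars, an order that the choice of regions largely sets.

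Gene lists for the tissue, chosen with earlier results of these data known, showed where these regions fell. For scale, 328 of 21896 protein-coding genes of the table and 307 of 11117 genes tested in RNA held a region on their strand. Host genes were also more abundant than tested genes in general (median average log2 CPM 7.32 against 4.65 in RNA). No list was tested against these shares or matched for abundance. Regions were found in 5 of 11 keratin genes (Krt14, Krt5, Krt17, Krt16 and Krt6a, 465 reads), in 6 of 12 genes of basement membrane and hemidesmosome (349 reads, 149 of them in Itgb1, the integrin β1 chain), in 8 of 20 cell junction genes (577 reads, 403 of them in Dsp) and in 8 of 21 actin and adhesion genes (2435 reads, 2102 of them in Ahnak). Of 36 RNA-binding protein genes 4 had a region, among them Pabpc1, Msi2 and Hnrnpk. Of 13 translation factor genes 8 had one, of 16 ribosomal protein genes 11 (some with the gene's strand not given), and of 18 Musashi targets known from other work 2, Hmga2 and Gsk3b, with 16 and 10 reads. None of 23 epidermal transcription factor genes or of 10 replication-dependent histone genes had one. The same held for the 23 marker genes of fibroblasts, melanocytes, immune, endothelial and muscle cells. At the share over all genes, lists of this size could hold none as well. Msi2's own region, at chr11:88590100-88590133, was 34 bases wide with 3, 1, 2, 4 and 6 reads.

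A further 304 regions had no RefSeq gene on their strand: 228 overlapped no gene and 76 lay opposite one, with 35.5% of the reads. They included 3 of the 4 highest of the 1319. The region at chr6:3201397-3201686 had a height of 1231 and 46, 249, 959, 1013 and 783 reads, that at chr18:73533388-73533544 a height of 1024 and 13, 329, 201, 293 and 188 reads, and that at chr11:109011784-109012132, opposite Gm36876, a height of 860 and 139, 1250, 503, 617 and 558 reads. The fourth, at chr5:146260975-146261228 within the span of Cdk8, a kinase of the Mediator complex, had a height of 900 and 36, 631, 705, 687 and 630 reads. The 10 highest regions held 17.1% of the reads. Height was below the summed reads in 59 regions, 50 of them within 50 bases of another listed region, and these 59 held 21.7% of the reads, so reads that overlap a pair of neighbours may be counted in each.

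Many regions without a sense gene drew most of their reads from 1 library. More than 50% of a region's reads came from the 1 in 50 library in 76 of the 228 regions without a gene (33.3%), in 32 of the 76 opposite a gene (42.1%), in 45 of the 441 in protein-coding genes (10.2%) and in 6 of 203 over snoRNA genes (2.96%). In the 3' UTR list this held for 113 of 2671 (4.23%). At chr14:106331459-106331559 the counts were 0, 4, 74, 157 and 37. At chrY:71081366-71081440 they were 0, 16, 36, 117 and 35, and at chr12:34073737-34073824, opposite Hdac9, 0, 1, 48, 124 and 26. In each of these 3 the undiluted library held 0 reads, which allows a count of up to 3 there. Of the 185 regions of this kind 108 had no gene on their strand; their widths ran from 43 to 309 bases.

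Reads per region were compared with the 3' UTR list over the 5 libraries. Mean reads per region outside and in the 3' UTR list were 2.36 and 0.732 in the undiluted library, 11.7 and 6.65 in the low MW library, 11.8 and 9.20 in the high MW library, 17.9 and 9.74 in the 1 in 50 library and 13.3 and 9.18 in the 1 in 75 library. Regions outside the list had the higher mean in 5 of 5 libraries, with a mean log2 ratio of 0.86 (SD 0.51, n = 5; two-sided exact sign-flip permutation test, p = 0.0625, the smallest that 5 libraries allow). Median reads per region outside and in the list were 1 and 0 in the undiluted library. In the others, in the order above, they were 4 and 3, 4 and 5, 7 and 5, and 5 and 5. With medians in place of means and 0.5 added to each, the log2 ratio was above 0 in 3 of 5 libraries (mean 0.42, exact permutation p = 0.25). The undiluted library gave the largest of these ratios, and its size depends on the 0.5 added. The difference in means thus rested on the upper part of the distribution. Regions outside the list also had reads in all 5 libraries more often, 47.2% against 33.5%; that share follows the undiluted library, in which 51.6% and 36.8% of regions had a read.

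The trend of each region with RNase dilution was fitted over all 4051 regions (edgeR quasi-likelihood slope on log2 dilution, adjusted with Benjamini-Hochberg; 1066 regions passed the filter on low counts, 417 of the 1319 among them). Fitted slopes are changes in log2 share per doubling of the dilution, and they compare 5 libraries of which each dilution but 1 has a single one. Of the regions outside the 3' UTR list, 22 fell with dilution (background over all tested regions 3.56%) and 2 rose (background 0.375%). Of the 22 that fell 12 were in miRNA genes, 7 overlapped no gene and 3 lay opposite one. The steepest of the 22 was the region opposite miR-31 (slope -0.96, SE 0.11, edgeR adjusted p = 6.3e-06), which is not among the 12. The miR-31 region itself fell too (slope -0.72, SE 0.09, edgeR adjusted p = 6.3e-06). Other miRNA regions that fell were those of Mir93, Mir182, Mir320, Mir222, Mir451a, Mir96, Mir200b, Mir17, Mir205, Mir23a with Mir27a, and Mir142, with slopes of -0.72 to -0.53. The 2 that rose were in Shb, which encodes a signalling adaptor (0, 1, 5, 62 and 61 reads; slope 2.25, SE 0.38, adjusted p = 0.000358), and opposite Tert, the telomerase reverse transcriptase gene (0, 1, 2, 45 and 29 reads; slope 2.21, SE 0.49, adjusted p = 0.00551). Without the undiluted library 0 of 374 tested regions outside the list were called by edgeR, with 16 at an unadjusted p under 0.05, and DESeq2 called 8 on all 5 libraries; the falling trend thus rested on that library.

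The median fitted slope set the classes side by side as a description. It was -0.57 over the 18 tested miRNA regions, -0.19 over 24 tRNA regions, -0.06 over 18 snRNA regions, 0.05 over 139 snoRNA regions, 0.10 over 18 lncRNA regions and 0.17 over 50 protein-coding regions, beside 0.12 over all 1066 tested regions. None of the 139 snoRNA regions and none of the 24 tRNA regions was called by edgeR.

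The knockdown libraries were used to ask how the genes that host these regions changed when Msi2 was reduced. The RNA libraries held 9221566 to 26785876 counts in genes and the footprint libraries 512256 to 2959625. Msi2 RNA was 6.51, 6.64 and 8.82 CPM in the control libraries and 6.55, 6.41 and 5.10 in the knockdown libraries, which overlapped (log2 fold change -0.29, SE 0.21, edgeR adjusted p = 0.283). Msi2 footprints were 17.1, 16.8 and 18.3 CPM in control and 4.53, 0 and 5.12 in knockdown, without overlap (log2 fold change -2.08, SE 0.41, edgeR adjusted p = 0.000285). The targeted gene was thus lower in the footprint table, and not measurably so in the RNA table. Its change in footprints minus that in RNA was -1.79 (SE 0.48, edgeR adjusted p = 0.117), so Msi2 was not called. Without control RNA replicate 3, the highest of its group in Msi2 RNA, the value was -2.03 (edgeR adjusted p = 0.0217). That fit also called more host genes than the main fit, and fits without other libraries are not given here for Msi2.

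Among host genes, more rose in the knockdown than fell, in RNA and in footprints. Of 328 protein-coding host genes on the region's strand, 307 were tested in RNA: 123 rose (40.1%; background over all 11117 tested genes 22.0%) and 47 fell (15.3%; background 21.7%), with a median log2 fold change of 0.16, against 0.00 over all tested genes. In footprints 296 were tested: 89 rose (30.1%; background over 8969 genes 8.76%) and 22 fell (7.43%; background 7.38%), with a median of 0.18 against -0.01. Without knockdown footprint replicate 3 the footprint calls in host genes numbered 60 and 10. The share over all tested genes in that fit is not given here, so whether hosts lost more calls than other genes cannot be told. Of the host genes tested in both, 74 rose in both, 13 fell in both and none moved in opposite directions by these calls. In 3' UTR list genes without a region outside it, 28.3% of 1004 tested rose in RNA and 13.2% of 984 in footprints.

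Summed counts of cell type markers moved between the groups as well. The 10 keratinocyte markers summed to 16900 to 20600 CPM in control RNA and 14100 to 15700 in knockdown RNA, and the 7 fibroblast markers to 4.54 to 7.55 and 8.97 to 10.2, with 4 of the 7 at 0 in both groups. The 6 melanocyte markers summed to 1.54 to 2.31 and 2.08 to 3.77 CPM, the 5 endothelial and muscle markers to 1.49 to 2.57 and 3.36 to 5.3, and the 5 immune markers to 16 to 18.6 and 8.3 to 13.4. In footprints the same sums were 24100 to 27500 and 22700 to 25300 CPM for keratinocyte markers and 7.02 to 14.1 and 8.02 to 9.21 for fibroblast markers. Melanocyte markers were at 5.27 to 7.05 and 1.51 to 4.01 CPM in footprints, endothelial and muscle markers at 9.66 to 12.7 and 8.02 to 13.6, and immune markers at 12.7 to 14.1 and 3.02 to 12. Krt14 and Krt5 made up most of the keratinocyte sum in RNA. Their means were 7270 and 7040 CPM in control and 5540 and 4570 in knockdown. Of the 10 keratinocyte markers 4 rose and 4 fell in RNA, and 4 rose and 3 fell in footprints. Over all tested genes 22.0% rose and 21.7% fell in RNA, and 8.76% and 7.38% in footprints. The median log2 fold change of the 10 was 0.03 in RNA and -0.11 in footprints. The part of these marker shifts in the counts of host genes was not tested. In such bulk samples fewer cells of a type and less RNA per cell cannot be told apart.

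**Figure D5:**
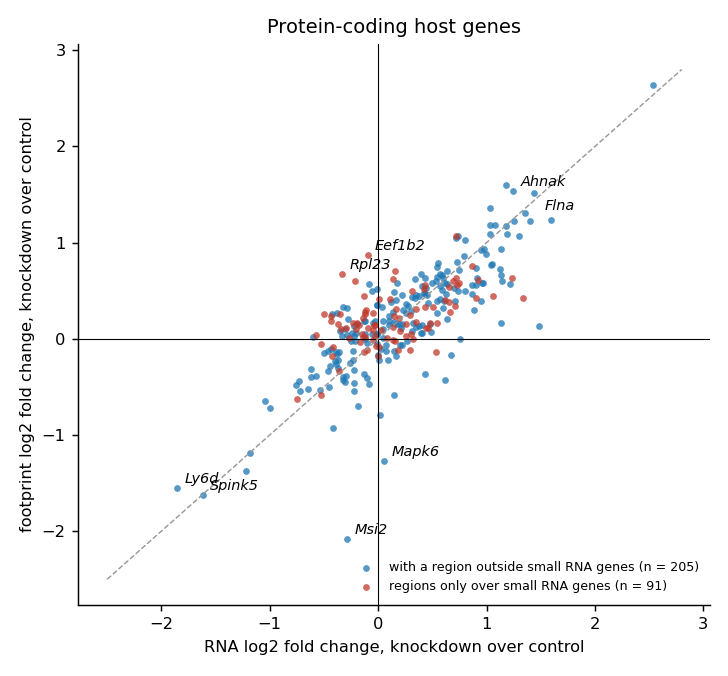
Log2 fold change of RNA (x axis) and of footprints (y axis), knockdown over control, for the 296 protein-coding host genes tested in both, in blue the 205 with a region outside small RNA genes and in red the 91 with regions only over small RNA genes; the dashed line marks equal change. Most points lie along the line in the upper right, and Msi2 and Mapk6 lie well below it.

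These counts were also split by gene level and length. Host genes were more abundant than tested genes in general (median average log2 CPM 7.32 against 4.65 in RNA), and more of them had a long span. Among genes of average log2 CPM 7 or more, 38.4% of 172 host genes and 15.7% of 1176 others rose in RNA. In footprints 39.7% of 179 and 14.9% of 1402 rose. Under that level, 42.2% of 135 host genes and 22.2% of 9634 others rose in RNA, and 15.4% of 117 and 6.71% of 7271 in footprints. The share that rose was thus lower at high level in RNA and higher in footprints, in hosts and in others. Among genes spanning 50000 bases or more, 48.6% of 107 host genes and 32.6% of 2838 others rose in RNA, and 36.9% of 103 and 11.8% of 2323 rose in footprints. In shorter spans the shares were 35.5% and 17.5% in RNA and 26.4% and 6.66% in footprints. The share that rose was higher in host genes within each of these groups, and no test of that difference was made.

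Hosts were also counted by the kind of region, beside 22.0% higher and 21.7% lower over all genes tested in RNA and 8.76% and 7.38% in footprints. Of 205 hosts tested in footprints with a region outside small RNA genes, 71 rose and 21 fell. Of 91 hosts whose regions were only over small RNA genes, 18 rose and 1 fell. In RNA 89 of 211 and 34 of 96 rose, and 34 and 13 fell. Hosts that were not in the 3' UTR list rose in 56 of 150 cases in RNA and 30 of 139 in footprints, and hosts also in it in 67 of 157 and 59 of 157.

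Increases named by the rule included Flna and Polr2a in both assays and Ahnak in footprints. Ahnak footprints were 2220, 2280 and 3890 CPM in control and 7180, 9460 and 7560 in knockdown (1.53, SE 0.19, edgeR adjusted p = 2.58e-05), and its RNA was 768, 832 and 1210 against 2010, 2530 and 2130 CPM. The groups did not overlap in either assay, and control replicate 3 was the highest of its group in both. Flna RNA was 515, 533 and 730 CPM in control and 1560, 1710 and 1540 in knockdown (log2 fold change 1.43, SE 0.15, edgeR adjusted p = 1.86e-06), and its footprints changed by 1.51. Polr2a (the largest subunit of RNA polymerase II) rose by 1.35 in RNA and 1.31 in footprints on the log2 scale. Among the 6 largest increases in RNA, but not in footprints, was Ptgs2, cyclooxygenase-2 (1.60 in RNA and 1.24 in footprints). Zbed6 (1.48 and 0.13) and Lama3, a laminin-332 chain (1.40 and 1.22), were the others reported. Among the 6 largest in footprints, but not in RNA, were also the chemokine genes Ppbp (1.60 in footprints and 1.18 in RNA) and Cxcl3 (1.36 and 1.03).

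Decreases named by the rule included Msi2 itself and several genes known from epidermis. Ly6d, a surface protein of keratinocytes (1 region), was 508, 673 and 533 CPM in control RNA and 167, 147 and 160 in knockdown RNA (log2 fold change -1.85, SE 0.13, edgeR adjusted p = 4.82e-08); its footprints were 902, 939 and 1200 against 340, 359 and 337 CPM (-1.55, SE 0.14, edgeR adjusted p = 4.37e-11). Spink5, an inhibitor of epidermal proteases, fell as well (log2 fold change -1.61 in RNA and -1.63 in footprints), as did Asprv1, a protease that processes filaggrin (-1.22 and -1.37). In RNA the rule also named Gphn (gephyrin; -1.04), Krt16 (512, 705 and 541 against 277, 271 and 329 CPM) and Serinc3 (-0.75), and in footprints Msi2, Mapk6 (-1.27) and Farp2 (-0.93). The Farp2 call was lost with DESeq2 (-1.05) and without knockdown replicate 2 or 3 or control replicate 1 or 3 (-0.91 to -0.80 over these 4), and that of Ppbp without knockdown replicate 2 (1.56). Each of these hosts had 1 region except Gphn, which had 2.

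Genes with the most regions did not move together. Fat1 rose from 393, 357 and 570 to 792, 949 and 804 CPM in RNA (log2 fold change 0.95, SE 0.16, edgeR adjusted p = 0.000183) and by 0.93 in footprints. Dsp, with 17 regions, was 934, 799 and 1100 CPM in control RNA and 835, 963 and 842 in knockdown RNA, so the groups overlapped (log2 fold change -0.10, SE 0.14, edgeR adjusted p = 0.566). Pls3 was not called in either assay (0.15 and 0.17). Krt14 fell in RNA (-0.39, SE 0.14, edgeR adjusted p = 0.0318) and not in footprints (-0.13, edgeR adjusted p = 0.535), and Cdcp1 rose in RNA (0.48) and was not called in footprints (0.16). The lncRNAs Neat1, Malat1, Gas5 and Snhg1 were not tested, because the count tables cover coding sequences.

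Members of the lists were counted beside the shares over all tested genes. Those shares were 22.0% higher and 21.7% lower in RNA and 8.76% and 7.38% in footprints. The lists are small and were chosen with earlier results of these data known. No list was tested against those shares, and the counts are a description only. Basement membrane and hemidesmosome genes rose: 6 of 6 with a region in RNA and in footprints, and 10 and 11 of the list's 12 (median log2 fold change 0.59 and 0.62), with Itgb1 at 0.40 and 0.68. Of the 8 actin and adhesion genes with a region 6 rose and none fell in each assay, and of all 21 on the list 12 rose in RNA and 15 in footprints. Of 5 keratin genes with a region 4 fell in each assay (Krt5 at -0.62 and -0.40), and 7 and 6 of the 11 listed fell while 2 rose. Of 8 cell junction genes with a region 1 rose and 2 fell in RNA and 1 rose and 3 fell in footprints, Perp (a desmosome protein) among those that fell (-0.72 and -0.54). Of 11 ribosomal protein genes with a region 1 rose and 4 fell in RNA and 1 rose in footprints; Rpl13a, with its 4 snoRNA regions, was at -0.34 (edgeR adjusted p = 0.0568) and 0.10. Of 8 translation factor genes with a region 4 rose and 1 fell in RNA and 2 rose in footprints, Eif4a2 at 1.06 in RNA and 0.45 (edgeR adjusted p = 0.078) in footprints. Of the RNA-binding proteins with a region Pabpc1 rose in both assays (0.87 and 0.56), while Hmga2 and Gsk3b of the Musashi target list were not called in either.

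Translational efficiency, the footprint change set against the RNA change, was called in 3 of 307 host genes: 2 higher (background over 10821 genes 0.129%) and 1 lower (background 0.0739%). Rpl23, a protein of the large ribosomal subunit with 1 snoRNA region, had 3840, 4320 and 3260 CPM of RNA in control and 2950, 3060 and 3090 in knockdown, while its footprints were 1490, 1590 and 1370 against 2490, 2260 and 2360 (interaction 1.02, SE 0.19, edgeR adjusted p = 0.0208). Eef1b2, an exchange factor of translation elongation with 2 snoRNA regions, had footprints of 1000, 1110 and 1190 CPM in control and 2260, 1660 and 2080 in knockdown with RNA groups that overlapped (0.98, SE 0.20, edgeR adjusted p = 0.0336). Mapk6, an atypical MAP kinase gene with 1 region of 18 reads, had 329, 296 and 347 CPM of RNA in control and 346, 318 and 344 in knockdown, but footprints of 210, 163 and 212 against 82.1, 40.1 and 104 (-1.30, SE 0.23, edgeR adjusted p = 0.0146). These 3 calls depended on single libraries. Leaving out 1 library at a time left 0 to 17 calls among hosts. There were 0 without knockdown footprint replicate 1, control footprint replicate 1 or knockdown RNA replicate 3. There was 1 without replicate 3 of either footprint group or replicate 1 of either RNA group, and 17 without control RNA replicate 3. Shares over all tested genes in these fits are not given here.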

How the data were processed

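The tools for CLIP were cutadapt and Novoalign, and those for RNA and footprint reads TopHat, HTSeq and DESeq, all on mm10 and with no version, per the submitters' processing notes. The deposited peak lists give for each region a signal (the total peak height), counts of reads of each of 5 libraries, and a score for the number of libraries with a read (4 or 5); the peak caller and the handling of identical reads are not given in the sources used here. For RNA and footprints, counts over coding sequences were deposited. Lines of the RNA table that name no gene held 32.3 to 35.2% (no feature), 0.175 to 0.228% (ambiguous) and 13.4 to 24.5% (several alignments) of reads and were left out.

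Regions were assigned by overlap with RefSeq gene spans of GRCm38.p6, with small RNA genes first, then protein-coding genes on the same strand, lncRNAs, pseudogenes and the opposite strand. Strand came from RefSeq promoter and miRNA tables or the deposited 3' UTR list and was lacking for 4150 of 21896 protein-coding genes and for tRNA, snRNA and snoRNA genes. Counts were fitted with edgeR 4.0.16 under R 4.3.3 (filterByExpr, minimum 10 and total 15, TMM factors, robust quasi-likelihood test, Benjamini-Hochberg adjustment, threshold 0.05), by group for RNA and footprints, as an interaction over all 12 libraries for translational efficiency, and as a slope on log2 dilution for regions. CPM values are TMM-scaled. No replicate block was used.

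Named were Msi2, the highest regions overall and per class, genes with the most regions, the 2 list members with most reads, and the 6 largest increases and decreases among called hosts whose average log2 CPM reached 3, with no overlap between groups. Predicted genes were named only among the highest regions, and some genes that met the rule are not reported here. The regions and lists were chosen with earlier results of these data known. On simulated data log2 changes of 1 were recovered in 80.6% (RNA, 11117 genes), 79.1% (footprints, 8969) and 32.8% (translational efficiency, 10821) of changed genes, and dilution slopes of 0.5 in 29.9% (1066 regions), with 20, 11, 4 and 4 false calls. Alternatives were upper-quartile factors, DESeq2 1.42.0, no filter, a replicate block, other host rules and region sets, and each library left out.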

Additional observations from a re-analysis of the deposited data

Results flagged for a closer look

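The undiluted CLIP library stood apart from the other 4 in the share of reads in miRNA genes, at 22.2% (16 sets of 5 library values were examined by Dixon's test at its 95% critical value, and chance flags about 1 in 20 of such sets). The low MW 1 in 20 library stood apart in the share of reads in snRNA genes, at 5.68%. The undiluted RNase was used in 1 library, so dilution and library cannot be told apart there. The high MW library, of the same 1 in 20 dilution as the low MW one, had an snRNA share of 3.89%.

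The knockdown changed footprints and RNA by different amounts, by the interaction test, in 3 host genes. The difference was 1.02 for Rpl23, 0.98 for Eef1b2 and -1.30 for Mapk6 on the log2 scale.

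Listed regions of 2 kinds stayed outside the comparisons. The mitochondrial regions held 16169 reads and those of the ribosomal RNA repeat 31199 reads, against 75374 in the 1319 regions described.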

How the results depend on the processing

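The main counts were 170 called host genes in RNA, 111 in footprints and 3 in translational efficiency, 24 regions called for the dilution trend, a mean share of 36.7% of listed reads and a mean log2 ratio of 0.86 in reads per region. Leaving out hosts that are also in the 3' UTR list left 79 and 34 calls in RNA and footprints (37.5% of hosts were called in footprints and 24.5% of those outside the list), and regions of height 20 or more left 79 and 47; fewer genes were tested, and any further cause was not tested. Leaving out each library gave 133 to 190 calls in RNA and 70 to 107 in footprints (70 without knockdown replicate 3). For translational efficiency the leave-one-out range was 0 to 17 calls, DESeq2 gave 12, no filter gave 11, and hosts with a region outside small RNA genes, a rule added after seeing the data, gave 1. With a replicate block the calls were 139 in RNA, 112 in footprints and 1 in translational efficiency. Control and knockdown libraries of the same number did not deviate together (correlations -0.276 to 0.0573 within an assay). Within a group, an RNA library and the footprint library that shares its number correlated at 0.0325 to 0.156, and in all 6 cases best with their own number, a hint from the data and not the design. A replicate block joining these, added after seeing the data, gave 25 calls in translational efficiency (17 higher and 8 lower), Rpl23, Eef1b2 and Mapk6 among them. The share over all tested genes is not given for these alternative fits, so whether calls changed more in hosts cannot be told. The share moved to 58.9% when mitochondrial and ribosomal repeat regions were kept and to 25.8% without small RNA genes (added after seeing the data); it was 34.1 to 38.2% over libraries left out. The dilution trend gave 8 called regions with DESeq2 and 0 without the undiluted library. No result reversed. Of the genes named, Farp2 lost its footprint call with DESeq2 (log2 fold change -1.05). The undiluted library's 6608 reads, the 512256 counts of the shallowest footprint library and the lack of exon annotation limit what could be detected.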
